A study of Mus musculus with 30 samples.

Results

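Cytosolic and mitochondrial heat shock chaperones were followed through 10 genes chosen by name: Hspa1a, Hspa1b, Hspa8, Hsph1, Dnaja1, Dnajb1, Hsp90aa1, Hsp90ab1, Hspd1 and Hspe1. All 10 were listed among the 31854 genes of the CALM/AF10 time-course table, the 34406 genes of the GMP time-course table and the 32564 genes of the leukemia line files. The mouse samples, labelled C57BL/6, were 30 libraries of total RNA in 10 groups of 3. In the time course, CALM/AF10 acute myeloid leukemia (AML) cells and normal bone marrow granulocyte-macrophage progenitors (GMP) were sampled at 0 h, before treatment, and 6 and 10 h after 1 µM RG3039, an inhibitor of Dcps, the scavenger decapping enzyme that removes the cap left when an mRNA has been degraded. The second set held 4 AML lines, MLL/AF9 #2 and #1 and CALM/AF10 #2 and #1, called line 2 and line 1 of each fusion here, with no treatment named for them in their own labels. CALM/AF10 and MLL/AF9 name the fusion genes that drive these leukemias. How the fusions were introduced, and which line the time-course leukemia cells came from, is not given in the sources used here. Whether samples of 1 group came from separate cultures or animals is not given in the labels, so p-values measure the spread between these samples, which may be technical. No untreated sample at 6 or 10 h was analysed here, so time in culture and RG3039 cannot be told apart.

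Heat shock chaperones and their partners help unfolded proteins to fold, and some of them, though not all, use ATP. In the cytosol, HSP40 proteins (Dnaja1, Dnajb1) hand clients to HSP70 (the stress-inducible Hspa1a and Hspa1b and the constitutive Hspa8), the HSP110 protein Hsph1 exchanges the nucleotide on HSP70, and HSP90 (Hsp90aa1, Hsp90ab1) completes the folding of kinases and receptors. In mitochondria, HSP60 (Hspd1) and its lid HSP10 (Hspe1) form the chaperonin. Under stress the factor HSF1 binds heat shock elements, arrays of the unit GAA and its inverted copy, and raises transcription of many of these genes. Hspa1a and Hspa1b are neighbouring, near-identical copies, so the way reads were divided between them is uncertain, and their sum is given beside them.

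Promoter windows were printed for 3 of the genes that moved, to show the exact matches they carry and to show that these matches are not alike. The windows, 300 bases each, came from RefSeq (build GRCm38.p6) and run from 250 bases before to 50 bases after a gene's start. They are the Hspe1 window at chr1:55087898-55088197 on the plus strand, the Hsph1 window at chr5:149636266-149636565 on the minus strand and the Hspa1b window at chr17:34959189-34959488 on the minus strand, each written 5′ to 3′ in the direction of the gene. Capitals mark every match to GAANNTTC or TTCNNGAA, each of which is its own reverse complement, so both strands were read.
Hspe1: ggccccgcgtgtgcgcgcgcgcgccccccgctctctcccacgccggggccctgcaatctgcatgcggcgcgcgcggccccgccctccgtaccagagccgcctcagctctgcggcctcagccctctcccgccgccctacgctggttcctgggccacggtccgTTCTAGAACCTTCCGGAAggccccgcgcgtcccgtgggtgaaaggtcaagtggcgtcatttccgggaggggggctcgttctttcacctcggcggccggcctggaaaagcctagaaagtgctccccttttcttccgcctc
Hsph1: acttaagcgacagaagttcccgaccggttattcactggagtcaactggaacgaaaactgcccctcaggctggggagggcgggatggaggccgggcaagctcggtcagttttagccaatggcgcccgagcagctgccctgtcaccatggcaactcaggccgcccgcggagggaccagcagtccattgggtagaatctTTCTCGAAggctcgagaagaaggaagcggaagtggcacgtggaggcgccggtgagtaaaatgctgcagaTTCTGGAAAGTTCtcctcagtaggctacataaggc
Hspa1b: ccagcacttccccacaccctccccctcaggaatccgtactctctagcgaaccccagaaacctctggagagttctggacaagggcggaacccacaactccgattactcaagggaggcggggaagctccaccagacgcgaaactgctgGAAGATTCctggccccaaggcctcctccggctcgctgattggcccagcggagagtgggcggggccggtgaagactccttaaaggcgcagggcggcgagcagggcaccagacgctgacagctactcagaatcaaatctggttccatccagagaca
Of the 7 chaperone genes with a window in the RefSeq table, 6 held GAANNTTC or TTCNNGAA (Hspe1, Hspd1, Hsph1, Hspa1a, Hspa1b and Dnaja1), as did 16.97% of the 27025 genes with a window. The 3-unit array GAANNTTCNNGAA, or its reverse complement TTCNNGAANNTTC, lay in 3 of the 7 (Hspe1, Hspd1 and Hsph1) and in 0.662% of all genes with a window. The 4-unit array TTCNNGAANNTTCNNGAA lay in Hspe1 and Hspd1, and it or GAANNTTCNNGAANNTTC lay in 8 of the 27025 genes. Longer arrays contain the shorter ones. The windows are those of the RefSeq table, and Hsp90aa1, Hsp90ab1 and Hspa8 have none there. A gene with several windows was counted when any of them held a match. Dnaja1 had its match in the window at chr4:40722218-40722517 and none in its other windows. Hspe1 (chr1:55088132-55091307, plus strand) and Hspd1 (chr1:55077835-55088243, minus strand) overlap head to head in GENCODE M21 on GRCm38. The Hspe1 window and the Hspd1 window at chr1:55087883-55088182 share 285 bases, and the array is the same stretch of DNA. It runs from -89 to -72 relative to the start that the RefSeq table gives Hspe1, which is not the GENCODE start. Another Hspd1 window, chr1:55088194-55088493, lies at the GENCODE start of Hspd1 and held no match. Hspa1a (chr17:34969190-34972156) and Hspa1b (chr17:34956436-34959238) lie on the minus strand. Their windows differ at 4 of 300 bases and carry the same single exact 2-unit match, so these 6 genes are not 6 independent cases. In the printed Hsph1 window, 1 match lies before the start and the 3-unit match begins 15 bases after it. Another Hsph1 window, chr5:149636287-149636586, has a different start, from which the same matches lie at -33 to -26 and at 36 to 48. Only exact matches were sought. Arrays with a mismatched unit, in Hspa1b or any other window, were neither marked nor counted, so a window may hold more than its capitals show. A match describes letters and not a bound site.

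Before treatment the order of levels in CALM/AF10 cells was Hspa8, Hsp90ab1, Hspe1, Hsp90aa1, Hspd1, Dnaja1, Dnajb1, Hsph1, Hspa1b and Hspa1a. Values are TPM, a share of all transcripts that corrects for their length, so levels of different genes can be set side by side. Hspa8 averaged 1501 ± 228 TPM and Hsp90ab1 995 ± 54.0 TPM (SD, n = 3), and together these 2 genes gave 50.1% and 33.2% of the summed level of all 10. Hspa1b and Hspa1a, at 0.759 ± 0.149 and 0.588 ± 0.176 TPM, were the only neighbours in that order at 0 h whose means ± SD overlapped. At 0 h in GMP, Hsp90ab1 came first with 1381 ± 55.8 TPM and Hspa8 second with 978 ± 28.8 TPM (n = 3), and no neighbours overlapped within 1 SD.

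The inducible HSP70 genes made the widest gap between the cell types before treatment. Hspa1b had 0.645, 0.705 and 0.928 TPM in the 3 untreated CALM/AF10 samples, against 51.8, 45.6 and 48.7 TPM in the 3 untreated GMP samples. Hspa1a had 0.726, 0.648 and 0.389 TPM in untreated CALM/AF10 cells, against 31.4, 33.6 and 35.3 TPM in untreated GMP. Hsp90aa1, the inducible HSP90, averaged 148 ± 2.44 TPM in CALM/AF10 cells and 294 ± 29.4 TPM in GMP. Hspd1 and Hspe1 lay close together in the 2 cell types, with 69.0 ± 1.27 and 192 ± 5.01 TPM in CALM/AF10 cells and 71.4 ± 6.25 and 191 ± 27.0 TPM in GMP. The 2 tables were normalised separately and list different genes, so these levels are given side by side with no test.

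**Figure D1:**
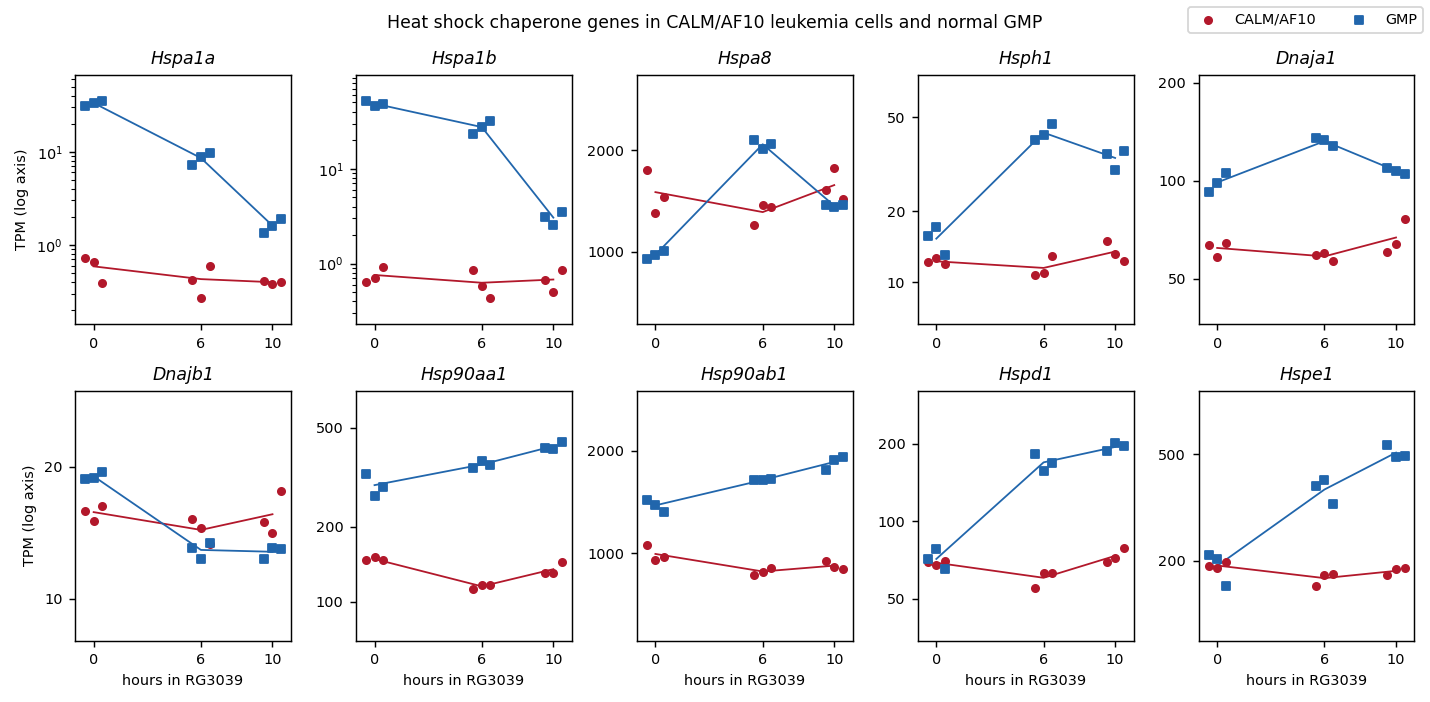
TPM of each chaperone gene (log axis, own scale per panel) against hours in RG3039, with 1 point per sample, samples of a time set slightly apart, and lines through the group means of CALM/AF10 cells (circles) and GMP (squares). In GMP, Hspd1, Hspe1 and Hsph1 lie higher at both later times and Hspa1a, Hspa1b and Dnajb1 lower, while every CALM/AF10 value of Hspa1a and Hspa1b is under 1 TPM.

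In GMP the chaperones parted after RG3039. The mitochondrial chaperonin pair, Hsph1, Hspa8 and both HSP90 genes rose, and the inducible HSP70 pair and the HSP40 gene Dnajb1 fell. At 6 h against 0 h, 7 of the 10 genes tested were higher and 3 lower. The background in this comparison was high, with 24.1% of the 14246 genes tested called higher and 19.9% called lower. At 10 h against 0 h, 6 were higher and 3 lower, against backgrounds of 23.7% and 21.5%. Calls are limma's moderated test on log2(TPM + 1), two-sided, with Benjamini-Hochberg adjusted p under 0.05 over all genes tested. The median change of the 10 genes was 0.35 at 6 h and 0.45 at 10 h on the log2 scale, and that of all genes tested was -0.02 and -0.03. In such bulk libraries, fewer cells of a type and less RNA per cell cannot be told apart.

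Hspd1, the folding chamber of the mitochondrial chaperonin, had 71.3, 77.7 and 65.2 TPM at 0 h, 182, 158 and 169 TPM at 6 h, and 187.3, 201 and 196 TPM at 10 h in GMP. Hspe1, its lid, had 210, 202 and 160 TPM at 0 h, 380, 400 and 326 TPM at 6 h, and 541, 486 and 492 TPM at 10 h. For both genes every treated sample lay above every 0 h sample. The log2 change of Hspd1 was 1.24 ± 0.08 (SE) at 6 h and 1.44 ± 0.08 at 10 h, with limma adjusted p of 3.16e-06 and 9.84e-07. That of Hspe1 was 0.95 ± 0.11 at 6 h and 1.41 ± 0.11 at 10 h, with limma adjusted p of 0.000145 and 1.19e-05. Hspd1 and Hspe1 are the 2 genes that share the 4-unit heat shock array printed above, though the Hspd1 window at its GENCODE start lacks it. The part of the array in their rise was not tested. The genome annotation also holds 5 further loci named after Hspd1 and 6 named after Hspe1, and how the authors counted reads that match such copies is not given in the sources used here.

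Hsph1, which resets HSP70 between clients, had 15.7, 17.2 and 13.0 TPM at 0 h, 40.1, 42.1 and 47.0 TPM at 6 h, and 35.0, 29.9 and 36.1 TPM at 10 h in GMP. All treated samples were above all untreated ones, and the change was 1.44 ± 0.11 at 6 h and 1.09 ± 0.11 at 10 h (limma adjusted p 1.30e-05 and 5.89e-05). Hspa8, the constitutive HSP70, had 949, 978 and 1007 TPM at 0 h, 2149, 2014 and 2088 TPM at 6 h, and 1376, 1356 and 1372 TPM at 10 h. Its 3 groups did not overlap at any pair of times. Hspa8 was the most abundant of the 10 genes in GMP at 6 h, and Hsp90ab1 at 0 and 10 h. Its change was 1.09 ± 0.05 at 6 h and 0.48 ± 0.05 at 10 h, and from 6 h to 10 h it fell by 0.61 ± 0.05 (limma adjusted p 0.00041). Dnaja1, an HSP40 that delivers clients to HSP70, had 92.3, 98.4 and 106 TPM at 0 h, 135, 134 and 128 TPM at 6 h, and 110, 107 and 105 TPM at 10 h. It was 0.42 ± 0.06 higher at 6 h (limma adjusted p 0.000347), and its 0 h and 10 h samples overlapped. The change of Dnaja1 at 10 h, 0.12 ± 0.06, had a limma adjusted p of 0.118, and without the 0 h sample c it was 0.17 with an adjusted p of 0.0338.

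The HSP90 genes moved less. Hsp90ab1, the constitutive form, had 1434, 1388 and 1323 TPM at 0 h, 1637, 1636 and 1645 TPM at 6 h, and 1755, 1883 and 1920 TPM at 10 h in GMP. Hsp90aa1 had 325, 267 and 290 TPM at 0 h, 346, 369 and 353 TPM at 6 h, and 416, 412 and 439.5 TPM at 10 h. In both genes all samples of a later time exceeded all samples of an earlier one. The change of Hsp90ab1 was 0.25 ± 0.05 at 6 h and 0.42 ± 0.05 at 10 h, and that of Hsp90aa1 0.28 ± 0.07 and 0.52 ± 0.07, with limma adjusted p between 0.000176 and 0.011.

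The inducible HSP70 pair went the other way. Hspa1b had 51.8, 45.6 and 48.7 TPM at 0 h, 23.4, 27.6 and 31.5 TPM at 6 h, and 3.11, 2.53 and 3.53 TPM at 10 h in GMP. Hspa1a had 31.4, 33.6 and 35.3 TPM at 0 h, 7.18, 8.78 and 9.76 TPM at 6 h, and 1.34, 1.59 and 1.89 TPM at 10 h. The 3 times did not overlap for either gene. Hspa1b fell by 0.81 ± 0.12 at 6 h and by 3.62 ± 0.12 at 10 h against 0 h, and Hspa1a changed by -1.86 ± 0.12 and -3.73 ± 0.12, on the log2(TPM + 1) scale, which understates the change of low genes. Their limma adjusted p were 0.000729 and 6.64e-08 for Hspa1b, and 4.82e-06 and 5.04e-08 for Hspa1a. Added together, the pair had 82.2 ± 2.53, 36.1 ± 5.37 and 4.67 ± 0.674 TPM at 0, 6 and 10 h (n = 3 each). The ratio of Hspa1b to Hspa1a was 1.36 to 1.65 at 0 h, 3.14 to 3.26 at 6 h and 1.58 to 2.32 at 10 h. Dnajb1, the HSP40 known as a partner of inducible HSP70, had 18.8, 18.9 and 19.4 TPM at 0 h, 13.0, 12.3 and 13.4 TPM at 6 h, and 12.3, 13.1 and 13.0 TPM at 10 h. It fell by 0.52 ± 0.07 at 6 h and by 0.54 ± 0.07 at 10 h (limma adjusted p 0.000201 and 0.000157), with no overlap with 0 h.

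Immediate early genes, transcription factors and phosphatases such as Fos, Jun, Egr1 and Dusp1 that rise within minutes of stimulation or handling of cells, also fell in GMP, with another time pattern. Of the 17 in the list, 15 were lower in GMP at 6 h and 17 at 10 h, with a median change of -1.28 and -1.75. From 6 to 10 h their median change was -0.29. Hspa1a and Hspa1b added together changed by -1.17 ± 0.12 from 0 to 6 h and by -2.71 ± 0.12 from 6 to 10 h. The summed level of the immediate early genes was 902 to 940 TPM at 0 h, 239 to 275 TPM at 6 h and 209 to 217 TPM at 10 h. In CALM/AF10 cells the sum was 290 to 315 TPM at 0 h, 321 to 332 TPM at 6 h and 278 to 297 TPM at 10 h. Their part in the result on Hspa1a and Hspa1b was not tested. Markers of cell types moved as well, not all in 1 direction. The summed level of 5 late neutrophil markers in GMP was 739 to 961 TPM at 0 h and 306 to 318 TPM at 10 h. That of 3 eosinophil markers was 232 to 299 and 87.6 to 113 TPM. That of 9 markers of GMP and myeloid progenitors was 21022 to 21954 and 11040 to 11650 TPM, with 7 genes lower and 2 higher at 10 h. The sum of 4 mast cell and basophil markers rose, from 84.9 to 93.0 TPM at 0 h to 102 to 119 TPM at 10 h, with 2 genes higher and 2 lower. Stromal markers stayed at 0.563 to 1.63 TPM in sum in GMP at all times, with Col3a1 listed at 0 in every GMP sample.

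**Figure D2:**
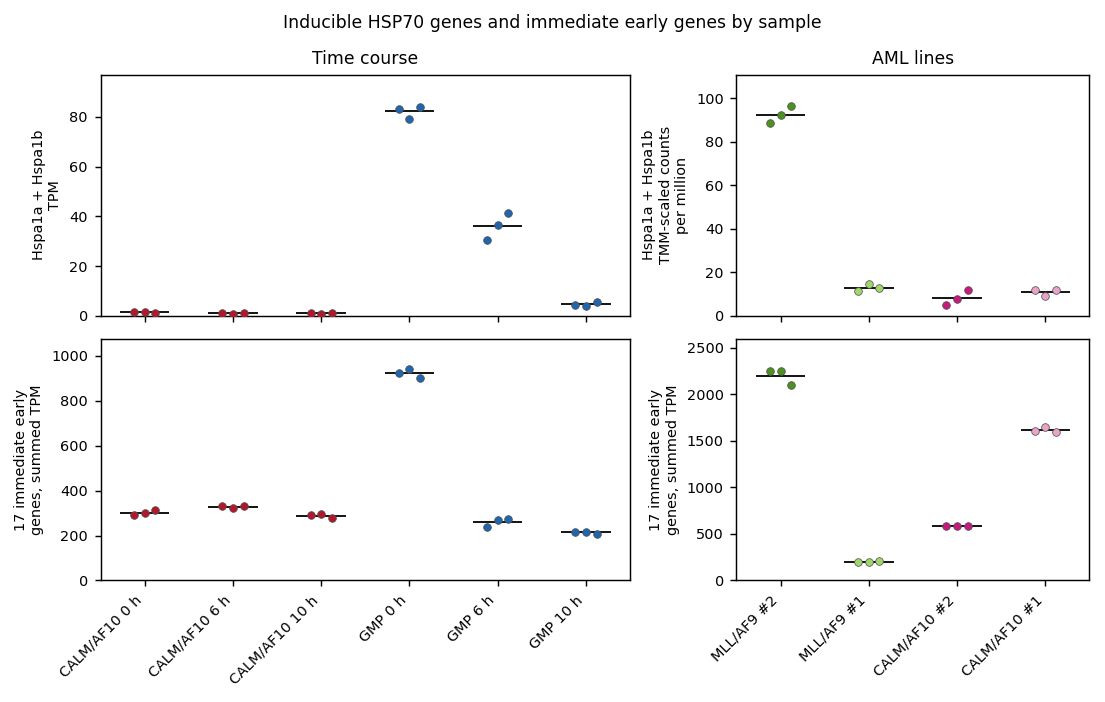
Top, summed level of Hspa1a and Hspa1b per sample (TPM in the time course, TMM-scaled CPM in the lines); bottom, summed TPM of 17 immediate early genes in the same samples. Points are samples and bars are group means (n = 3). GMP at 0 h stands highest in both time-course panels and MLL/AF9 line 2 in both line panels, while CALM/AF10 line 1 is high only in the lower panel.

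Between 6 and 10 h in GMP, where neither group was untreated, 1 of the 10 genes was higher and 4 were lower, against backgrounds of 3.21% and 3.87% of 14246 genes. With each sample centred on its median, that background was 714 genes higher and 382 lower, against 457 and 552 as deposited. Hspa1b fell by 2.81 ± 0.12, Hspa1a fell by 1.87 ± 0.12 and Hspa8 fell by 0.61 ± 0.05 on the log2 scale, with limma adjusted p of 1.88e-05, 0.000169 and 0.00041. Dnaja1 fell by 0.30 ± 0.06 (limma adjusted p 0.0173). That call was lost without either of the 6 h samples a and b or any 10 h sample (adjusted p 0.0508 to 0.068). Hspe1 was 0.46 ± 0.11 higher (limma adjusted p 0.0411). This call was lost without any 1 of the 6 samples compared (adjusted p 0.0619 to 0.139).

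In CALM/AF10 cells, 8 of the 10 genes passed the filter of 1 TPM in at least 3 samples, and Hspa1a and Hspa1b did not. Neither exceeded 1 TPM in any of the 9 samples, and their sum averaged 1.35 ± 0.03 TPM at 0 h, 1.06 ± 0.21 TPM at 6 h and 1.08 ± 0.19 TPM at 10 h (n = 3 each). At 6 h against 0 h none of the 8 was called higher and 2 were called lower, against backgrounds of 5.44% and 7.14% of 12815 genes tested. With each sample centred on its median, 1031 genes were higher and 731 lower, against 697 and 915 as deposited. At 10 h against 0 h none of the 8 was called by limma, where 2 had an unadjusted p under 0.05 (Hsp90aa1 and Hsp90ab1) and 10.5% of all genes were called higher and 8.64% lower. The changes of the 8 genes at 10 h ran from -0.14 to 0.12, with standard errors of 0.05 to 0.11.

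Hsp90aa1 had 112, 117 and 117 TPM in CALM/AF10 cells at 6 h, against 147, 151 and 147 TPM at 0 h, with no overlap. It fell by 0.36 ± 0.05 on the log2 scale (limma adjusted p 0.00122), and the call held in each leave-one-out fit, with a change of -0.37 to -0.34. At 10 h it had 130, 130 and 145 TPM, a change of -0.14 ± 0.05 from 0 h (limma adjusted p 0.0788), and without the 10 h sample c it fell by 0.19 with an adjusted p of 0.0108. Against 6 h, the 10 h level of Hsp90aa1 was 0.23 ± 0.05 higher (limma adjusted p 0.0411), the only call among the 8 genes in that comparison, where 2.18% of all genes were called higher and 0.749% lower. With each sample centred on its median, 194 genes were higher and 153 lower in that comparison, against 280 and 96 as deposited. That call was lost in all 9 leave-one-out fits (adjusted p 0.0534 to 0.129). From 6 h to 10 h, 4 of the 8 genes had an unadjusted limma p under 0.05 (Hsp90aa1, Hspd1, Hspa8 and Hsph1). The median change of the 8 was 0.20, against 0.03 for all genes tested. Hspd1 was 0.28 ± 0.07 higher, with no overlap (limma adjusted p 0.0554). Hsp90ab1 had 865, 880 and 906 TPM at 6 h, against 1056, 954 and 975 TPM at 0 h. These groups did not overlap, and Hsp90ab1 fell by 0.17 ± 0.05 (limma adjusted p 0.0387). The call was lost without the 0 h samples a or c, any of the 6 h samples or the 10 h sample b (adjusted p 0.0585 to 0.123), and with median centring (adjusted p 0.195).

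Genes that rose in GMP, other than the HSP90 pair, did not pass the test in CALM/AF10 cells. Hspd1 had 69.5, 67.6 and 70.0 TPM at 0 h, 55.0, 63.2 and 62.7 TPM at 6 h and 69.4, 71.9 and 78.9 TPM at 10 h, and its changes of -0.19 ± 0.07 and 0.09 ± 0.07 had limma adjusted p of 0.0866 and 0.41. Hspe1 had 191, 186.95 and 197 TPM at 0 h, 161, 177 and 178 TPM at 6 h and 176, 185.7 and 188 TPM at 10 h. At 6 h both chaperonin genes lay below 0 h with no overlap, and at 10 h they overlapped it. Hspa8 spanned 1303 to 1750 TPM at 0 h, 1197 to 1378 TPM at 6 h and 1431 to 1768 TPM at 10 h, and its replicates spread more than those of the other abundant genes. Hsph1 stayed within 10.7 to 14.98 TPM, Dnajb1 within 13.3 to 17.7 TPM and Dnaja1 within 56.7 to 76.5 TPM over all 9 CALM/AF10 samples.

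**Figure D3:**
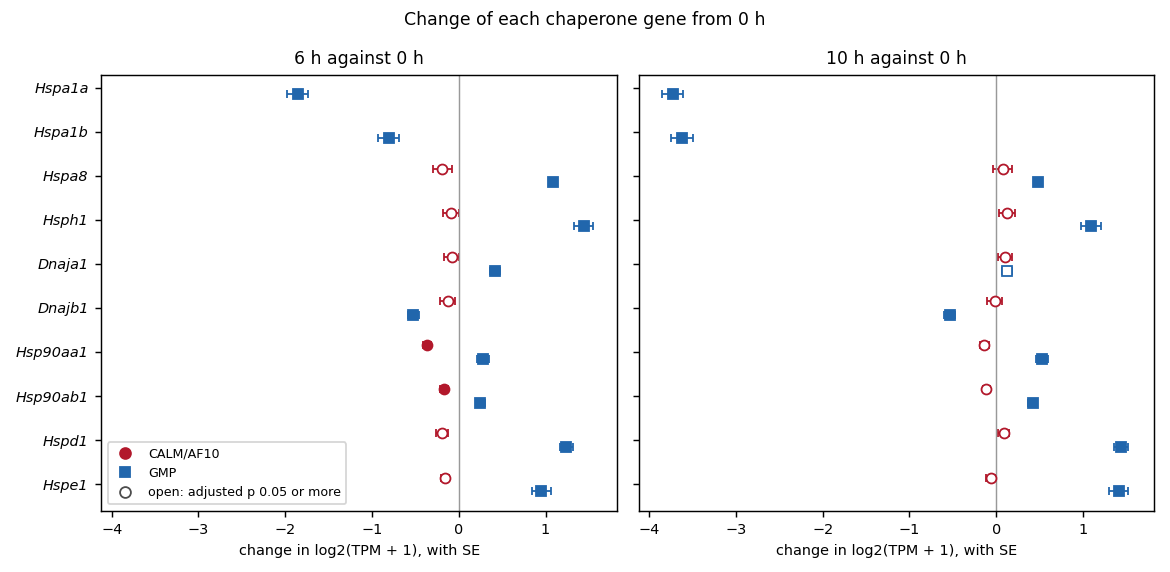
Change in log2(TPM + 1) from 0 h for each chaperone gene at 6 h (left) and 10 h (right), CALM/AF10 cells as circles and GMP as squares, bars showing the SE from limma. Filled symbols have an adjusted p under 0.05 over all genes; Hspa1a and Hspa1b were under the filter in CALM/AF10 cells and have no circle.

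The difference between the cell types was tested directly, subtracting each gene's change in GMP from its change in CALM/AF10 cells, in 1 limma fit over 14044 shared genes. Both times use the same 0 h samples. Of the 8 genes that passed the filter in both cell types, 1 had a positive and 7 a negative difference called at 6 h, where 16.2% and 22.2% of all genes were called in those directions. At 10 h 1 was positive and 6 were negative, against 18.5% and 20.2%. The negative differences were widest for Hsph1 (-1.53 ± 0.15) and Hspd1 (-1.43 ± 0.10) at 6 h and for Hspe1 (-1.48 ± 0.13) and Hspd1 (-1.35 ± 0.10) at 10 h, with limma adjusted p of at most 8.84e-07. The positive one was Dnajb1, which fell in GMP (difference 0.40 ± 0.10 at 6 h). Hspa1a and Hspa1b entered the fit through GMP alone, and at group means of 0.397 to 0.759 TPM in CALM/AF10 cells their log2(TPM + 1) hardly varies there. Their positive differences are therefore the fall in GMP seen again, and no measure of a response in CALM/AF10 cells. The difference for Hspa1b at 6 h, 0.69 ± 0.18 (limma adjusted p 0.00762), was 0.56 with an adjusted p of 0.167 when the pseudocount was 0.1. That for Hspa8 at 10 h, -0.41 ± 0.13 (limma adjusted p 0.0203), was -0.34 with an adjusted p of 0.0558 without the CALM/AF10 10 h sample c and -0.19 with 0.275 after quantile normalization. Dnaja1 differed at 6 h (-0.50 ± 0.10) and had -0.02 ± 0.10 at 10 h (limma adjusted p 0.893).

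Many partners of these chaperones, though not all, also rose in GMP. Of 14 HSP90 co-chaperones tested, 8 were higher and none lower at 6 h, and 11 higher and none lower at 10 h, with a median change of 0.44 and 0.63. Ppp5c, a phosphatase that docks on HSP90, had 63.7 TPM at 6 h and 64.6 TPM at 10 h, against 33.2 TPM at 0 h, and Tomm70a, the mitochondrial import receptor that accepts HSP90 clients, 44.3 and 50.6 TPM against 26.1 TPM. Ptges3, the p23 protein, had 167.1 TPM at 10 h against 94.5 TPM at 0 h, and the ATPase activator Ahsa1 207 TPM at 6 h against 131 TPM at 0 h. Of 19 HSP70 co-chaperones and exchange factors, 9 were higher and 1 lower at 6 h, and 13 higher and 2 lower at 10 h. Bag2 had 20.1 TPM at 6 h and 21.9 TPM at 10 h, against 10.2 TPM at 0 h, and the HSP110 relative Hspa4 41.2 and 42.6 TPM against 25.3 TPM. Hspa2, another HSP70, was the 1 lower gene at 6 h and among the 2 lower at 10 h, with 8.36 TPM against 17.4 TPM at 0 h. The other was Dnajb4, an HSP40 named here after its values were seen, with 11.8 TPM against 18.5 TPM.

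The cytosolic chaperonin TRiC and its helper prefoldin rose in most of their genes, with 11 of 14 genes higher and 1 lower at 6 h and 12 higher and 1 lower at 10 h in GMP. Cct8 had 106 TPM at 10 h against 55.3 TPM at 0 h, Cct6a 202 against 112 TPM, Cct7 58.9 against 32.3 TPM and Pfdn4 31.8 against 16.3 TPM. The 1 lower gene at both times was Pfdn5, a prefoldin subunit named here after its values were seen, with 119 TPM at 6 and 10 h, against 175 TPM at 0 h. Of 15 mitochondrial chaperones and proteases, 6 were higher and 1 lower at 6 h, and 8 higher and 1 lower at 10 h. Hspa9, the mitochondrial HSP70, had 74.0 TPM at 6 h and 80.8 TPM at 10 h, against 47.0 TPM at 0 h, and the protease subunit Clpp 77.4 and 81.9 TPM against 50.6 TPM. Hscb, which serves iron-sulfur cluster assembly, was the 1 lower gene at both times, with 12.3 and 10.4 TPM against 19.3 TPM. The heat shock factor Hsf1 changed by -0.25 ± 0.06 and its binding partner Hsbp1 by 0.24 ± 0.06 at 10 h (limma adjusted p 0.00881 and 0.00773), and none of the 3 genes tested in that list was called at 6 h by limma, where none had an unadjusted p under 0.05. Of 4 small heat shock protein genes tested, 1 was lower at 6 h (Cryab, named after its values were seen, at 1.37 against 2.41 TPM) and none was called at 10 h by limma, where none had an unadjusted p under 0.05. These counts stand beside the backgrounds of 24.1% higher and 19.9% lower at 6 h and 23.7% and 21.5% at 10 h.

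In CALM/AF10 cells the same lists are set against backgrounds of 5.44% higher and 7.14% lower at 6 h and 10.5% and 8.64% at 10 h. At 6 h, 1 HSP90 co-chaperone was higher and 2 lower, and at 10 h 2 were higher and none lower, of 14 tested. Unc45a, a myosin-directed HSP90 co-chaperone, had 31.2 TPM at 6 h and 25.5 TPM at 10 h, against 19.8 TPM at 0 h. The other gene higher at 10 h was Ahsa1, with 152 against 126 TPM. Ppid and Fkbp4, HSP90-bound peptidyl-prolyl isomerases, changed by -0.39 ± 0.09 and -0.25 ± 0.06 at 6 h (limma adjusted p 0.0154 and 0.016). Of the 14 TRiC and prefoldin genes, none was called at 6 h by limma, where 4 had an unadjusted p under 0.05 and median centring called 2 higher. At 10 h 3 were higher, Pfdn4, Pfdn2 and Cct7, the last with 23.3 TPM against 18.9 TPM at 0 h. Of the 18 HSP70 co-chaperones tested, 1 was lower at 6 h (Bag2, 4.59 against 6.54 TPM) and none was called at 10 h by limma, where 3 had an unadjusted p under 0.05. Of 15 mitochondrial chaperones and proteases, 1 was lower at 6 h, and 1 was higher and 1 lower at 10 h. The higher one was the protease Htra2, with 77.6 TPM at 10 h against 61.6 TPM at 0 h. Hscb was the lower one at both times, with 8.11 TPM at 6 h and 7.05 TPM at 10 h, against 17.01 TPM at 0 h, a change of -1.004 ± 0.15 and -1.16 ± 0.15 (limma adjusted p 0.00245 and 0.000815).

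No chaperone gene of the 10 was named in the authors' deposited table of changed splice junctions for either cell type or time, and no listed junction overlapped their loci on mm10. Those 4 lists held 486 and 689 junctions for CALM/AF10 cells at 6 and 10 h and 291 and 400 for GMP, each with a q-value under 0.05. Among the partner genes, the authors' deposited table gave a Tcp1 junction (chr17:12916629-12918042), from the TRiC subunit, a mean percent spliced in of 25 at 6 h and 27 at 10 h in GMP, against 16 at 0 h. For Stub1, the ubiquitin ligase that acts on HSP70 clients, the authors' deposited table listed a junction (chr17:25831365-25831543) at 78 percent at 6 h, against 49 percent at 0 h in GMP. The same junction was listed at 42 percent at 10 h, against 23 percent at 0 h, so its 2 rows give different 0 h values. Another Stub1 junction (chr17:25831218-25831308) was listed in GMP at 77 percent at 10 h, against 50 percent at 0 h. In CALM/AF10 cells the authors' deposited table gave Dnajb2, an HSP40, a junction (chr1:75236537-75236851) at 29 percent at 6 h, against 6 percent at 0 h. At 10 h it listed an Fkbp5 junction (chr17:28438136-28438724) at 5 percent, against 0 percent at 0 h. It also listed a Dnajc7 junction (chr11:100585055-100589897) at 99 percent at 10 h, against 95 percent at 0 h. Partner genes were named by 1 and 2 junctions in CALM/AF10 cells at 6 and 10 h, and by 2 and 3 in GMP.

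Over the 18 time-course samples, each set against the 0 h mean of its cell type, the 5 genes whose profile came closest to Hspa1b were Thbs1, Klf2, Dusp6, F13a1 and Arl5c, among 7759 candidate genes. Their root mean square difference from Hspa1b was 0.355 for Thbs1 and 0.577 to 0.674 for the other 4, on the log2(TPM + 1) scale. Thbs1, the matrix glycoprotein thrombospondin, had 24.0 TPM at 0 h and 2.47 TPM at 10 h in GMP. Klf2, a transcription factor, had 28.5 TPM at 0 h and 4.06 TPM at 10 h in GMP. In GMP at 10 h these 5 genes changed by -2.85 (Thbs1) and -2.13 to -2.54 (the other 4), against -3.62 for Hspa1b. In CALM/AF10 cells Hspa1b was under 1 TPM in every sample, so closeness there only favours genes that hardly changed. These 5 genes were named by closeness alone, and the samples share the same tables and 0 h baselines.

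In the AML lines, inducible HSP70 and most of the other chaperones differed in opposite directions within the MLL/AF9 fusion. Line values are CPM, a gene's share of a sample's estimated reads after TMM scaling, which compare a gene between samples but not genes with each other. MLL/AF9 line 2 had 3 of the 10 genes higher and 6 lower than MLL/AF9 line 1, against backgrounds of 25.8% higher and 30.7% lower of 17064 genes tested with the edgeR quasi-likelihood test. Hspa1a had 52.9, 61.3 and 66.6 CPM in MLL/AF9 line 2, against 3.24, 5.33 and 2.10 in line 1. Hspa1b had 35.7, 31.3 and 29.7 in line 2, against 8.14, 9.51 and 10.7 in line 1. Neither gene overlapped between the lines, and the log2 differences were 4.08 ± 0.30 and 1.77 ± 0.28 (edgeR adjusted p 1.24e-09 and 3.16e-05). Added together, the pair had 92.5 ± 3.86 in MLL/AF9 line 2, 13.0 ± 1.74 in MLL/AF9 line 1, 8.11 ± 3.39 in CALM/AF10 line 2 and 11.03 ± 1.58 in CALM/AF10 line 1 (n = 3 each).

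Immediate early genes and markers of other cells moved with that difference. All 17 immediate early genes were higher in MLL/AF9 line 2, with a summed level of 2106 to 2256 TPM against 201 to 208 TPM in MLL/AF9 line 1. The 5 stromal markers summed to 108 to 119 TPM in line 2 and 4.73 to 6.25 TPM in line 1, and the 5 endothelial markers to 86.2 to 92.5 and 44.1 to 46.7 TPM, with none of these markers at 0 in all samples of a line. Their part in the result was not tested. CALM/AF10 line 1 had 1592 to 1647 TPM of immediate early genes and 6.29, 7.68 and 8.85 CPM of Hspa1a.

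Hsp90aa1, Hsp90ab1, Hspa8, Hspd1 and Hspe1 had their highest levels in MLL/AF9 line 1, in counts and in TPM. Hsp90ab1 had 549, 541 and 564 CPM in MLL/AF9 line 2, against 1427, 1421 and 1383 in line 1, and fell by 1.36 ± 0.04 on the log2 scale. Hspe1 had 34.7, 28.9 and 32.2 in line 2, against 95.4, 98.3 and 107 in line 1, and fell by 1.65 ± 0.10. None of these samples overlapped between the lines. Hspd1 fell by 1.30 ± 0.08, Hsp90aa1 fell by 1.29 ± 0.05 and Hspa8 fell by 0.81 ± 0.04, with edgeR adjusted p of at most 2.32e-10 for all 5 genes. In log2(TPM + 1) the 5 differences were smaller, at -0.86 for Hsp90ab1, -1.14 for Hspe1, -0.85 for Hspd1, -0.65 for Hsp90aa1 and -0.45 for Hspa8, and all were called (limma adjusted p at most 0.000122). Dnajb1 was 0.40 ± 0.09 higher in line 2 (edgeR adjusted p 0.00147), with 61.2, 53.9 and 57.0 against 46.0, 42.7 and 42.1 CPM, and 0.86 higher in log2(TPM + 1). Hsph1 changed by -0.30 ± 0.13 in counts, which missed the threshold (edgeR adjusted p 0.0541), and by 0.35 in TPM (limma adjusted p 0.219), with 22.3 ± 2.57 TPM in line 2 against 17.2 ± 1.38 TPM in line 1. Dnaja1 fell by 0.32 ± 0.06 in counts (edgeR adjusted p 0.000199), but in TPM it was 0.17 higher (limma adjusted p 0.0482).

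The scale itself shifted: between the MLL/AF9 lines the median change of all genes was 0.08 in TMM-scaled counts and 0.42 in log2(TPM + 1). In log2(TPM + 1), 6460 of 15321 genes tested were higher and 2253 lower, against 4410 and 5240 of 17064 in counts. Non-coding transcript models also took 61.2 to 82.4% of the summed TPM of Dnaja1, and 69.0 to 83.8% of that of Hsp90aa1, over the 12 line samples. Their share was highest for Hspa8, at 85.3 to 91.8%, and was 48.9 to 60.3% for Hsp90ab1. Of the estimated reads behind the counts, they took 58.0 to 77.2% for Hspa8, 33.9 to 65.6% for Dnaja1 and 34.5 to 41.8% for Hsp90aa1. Dnajb1, Hspa1a, Hspa1b and Hspd1 had no such models. The part of the scale or of these models in the reversal of Dnaja1, or in the other line differences, was not tested. Short models weigh heavily in TPM, so no order of levels between genes is given for the lines.

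The TRiC and prefoldin genes followed Hspd1 and Hspe1, with all 13 tested lower in MLL/AF9 line 2 than in line 1 (median change -1.08, edgeR). In TPM, 6 of the 13 were lower and none higher. Pfdn5 had 41.9 CPM in line 2, against 123 in line 1, and Tcp1 84.8 against 194. Of 20 HSP70 co-chaperones, 15 were lower and 1 higher in counts, and 6 lower and 4 higher in TPM, and the 1 higher in counts was Dnajb4, with 13.4 against 7.44. Of 14 HSP90 co-chaperones, 9 were lower and 4 higher (Cdc37l1, Ppid, Ppp5c and Unc45a, named after their values were seen) in counts (median change -0.64), and 6 lower and 5 higher in TPM (median -0.10), with Ahsa1 at 49.5 against 170 and Ptges3 at 69.6 against 178 CPM. Of 15 mitochondrial chaperones and proteases, 10 were lower and 1 higher in counts, among the lower Hspa9 with 65.4 against 133, and the higher one was Clpb, with 31.5 against 23.2, also named after its values were seen. In TPM, 4 of the mitochondrial genes were lower and 3 higher. The list counts in this paragraph stand beside backgrounds of 25.8% higher and 30.7% lower in counts. In TPM the background leaned the other way, with more genes higher than lower, as given above.

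**Figure D4:**
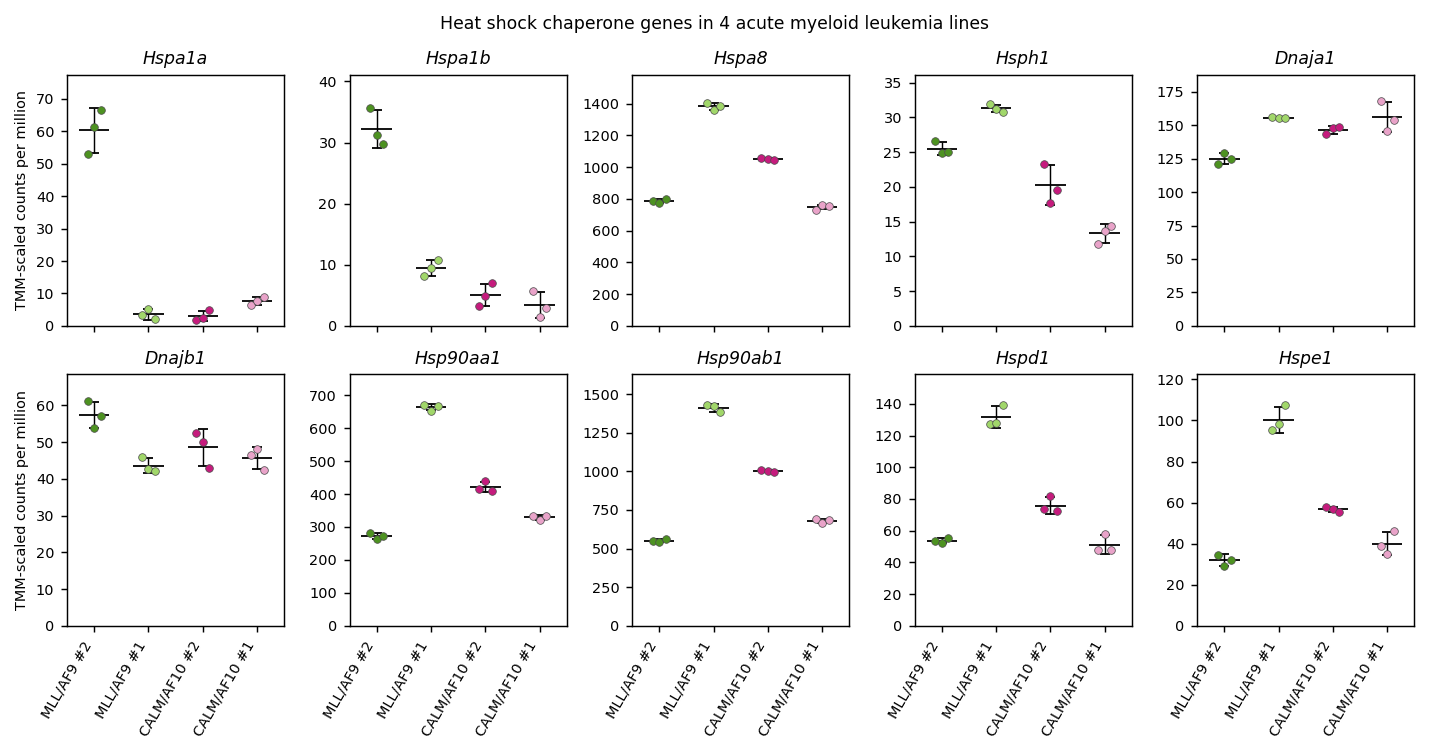
TMM-scaled CPM of each chaperone gene in the 4 AML lines (linear axis from 0), with 1 point per sample, bars at the mean and whiskers of 1 SD (n = 3). Hspa1a and Hspa1b stand apart in MLL/AF9 line 2, and Hsp90aa1, Hsp90ab1, Hspa8, Hspd1 and Hspe1 are highest in MLL/AF9 line 1, as is Hsph1 here but not in TPM.

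CALM/AF10 line 2 had 6 of the 10 genes higher and 1 lower than CALM/AF10 line 1, against backgrounds of 20.1% and 11.9% of 17064 genes (edgeR). Hsp90ab1 had 1010, 1004 and 996 CPM in line 2, against 692, 663 and 683 in line 1. Hspa8 had 1059, 1050 and 1043 in line 2, against 733, 760 and 755 in line 1. The lines did not overlap for either gene, and the differences were 0.56 ± 0.04 and 0.49 ± 0.04. Hsph1, Hspd1, Hspe1 and Hsp90aa1 were 0.60 ± 0.14, 0.56 ± 0.09, 0.50 ± 0.10 and 0.36 ± 0.05 higher (edgeR adjusted p at most 0.00294). In TPM the calls of Hsp90aa1 and Hsph1 were lost (limma adjusted p 0.0539 and 0.0689), and the Hspa1a difference was -0.67 (limma adjusted p 0.0388). Hspa1a was the gene called lower, with 1.74, 2.56 and 4.80 CPM in line 2, against 6.29, 7.68 and 8.85 in line 1 (-1.31 ± 0.33, edgeR adjusted p 0.00556). The sum of Hspa1a and Hspa1b differed by -0.42 ± 0.23 (edgeR adjusted p 0.163), and Hspa1b alone was 1.24 higher (adjusted p 0.0112) without replicate 1 of line 1. Dnaja1, at -0.09 ± 0.06 in counts (edgeR adjusted p 0.278), was 0.24 higher in TPM (limma adjusted p 0.0239). Of 13 TRiC and prefoldin genes, 9 were higher and none lower. Of the 17 immediate early genes 15 were lower in line 2, with 581 to 589 TPM in sum against 1592 to 1647 TPM, and the 6 red cell markers summed to 125 to 131 TPM in line 2 and 939 to 1202 TPM in line 1. Their part in these differences was not tested.

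The fusions were compared with the line as the replicate, 2 MLL/AF9 against 2 CALM/AF10 lines, on counts summed per line. No chaperone gene was called by the edgeR quasi-likelihood test, 2 had an unadjusted p under 0.05 (Hspa1a and Hspa1b), and 1.06% of 19066 genes were called higher and 1.78% lower. In log2(TPM + 1), 174 genes were higher and 149 lower, against 202 and 340 in counts. Hspa1a was 2.53 ± 1.04 higher and Hspa1b 2.26 ± 0.62 higher in the MLL/AF9 lines (edgeR adjusted p 0.357 and 0.12), and the DESeq2 test called both (adjusted p 0.0449 and 0.00717). The Hspa1a difference rests on MLL/AF9 line 2, and without that line it was -0.63. Without MLL/AF9 line 1 it was 3.36, and without CALM/AF10 line 1 it was 3.24, and both were called (adjusted p 3.81e-08 and 0.0116). Hspa1b, without MLL/AF9 line 1, was 2.80 higher (adjusted p 5.67e-06). Hspe1 and Hspd1 were 0.46 ± 0.55 and 0.53 ± 0.50 higher, and without MLL/AF9 line 2 they were 1.03 and 1.01 higher (edgeR adjusted p 0.0333 and 0.0426), and without MLL/AF9 line 1 the differences were -0.73 and -0.39. For the other 6 genes the difference ran from -0.12 to 0.74, with standard errors of 0.35 to 0.68. All standard errors of this comparison come from edgeR's test, which shares its estimate of spread partly over all genes. They are therefore no measure of a single gene's own distance between the 2 lines of a fusion. In log2(TPM + 1) the difference for Dnaja1 was 0.54, against -0.12 in counts, and neither was called. Markers of maturing cells stood apart between the fusions. All 5 late neutrophil markers were called lower by edgeR in the MLL/AF9 lines (median change -5.02), with a summed level of 744 to 1323 TPM, against 24278 to 25511 TPM in the CALM/AF10 lines. Of 3 eosinophil markers 2 were called lower (median -5.61), with sums of 2.92 to 8.98 TPM against 153 to 203 TPM. Immediate early genes were not called by edgeR, where 1 of 17 had an unadjusted p under 0.05. The part of the markers in these differences was not tested.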

How the data were processed

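The 30 RNA-seq libraries were grouped by their labels. Per the labels' protocols, total RNA went into libraries of the Ovation kit for mouse RNA-seq. STAR and mm10 appear in the submitters' processing notes, without role or version. The authors deposited TPM per gene for the time course, with columns that name the group and not the replicate (called a, b and c), and each column sums to 1000000, so depth is unknown. Per the file headers, the line files give TPM and estimated counts per transcript. Estimated counts were summed per gene (GENCODE M21) and rounded. The lines had 8739673 to 25194822 estimated reads, so low counts limit the precision for Hspa1a and Hspa1b. The 4 junction lists hold percent spliced in, a log2 ratio, a q-value and a mean raw count used as a score, per the deposited file headers.

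Time-course genes at a TPM of 1 or more in at least 3 samples were fitted as log2(TPM + 1) with limma 3.58.1 (R 4.3.3), and lines with edgeR 4.0.16 (quasi-likelihood, TMM), with DESeq2 1.42.0 as an alternative. Scripts were tested on simulated data with 200 changed genes per comparison. These genes were drawn from those above a minimum level. Between the fusions, where larger changes were planted than in the other comparisons, 24% of the changed genes were found and 11.1% of calls were false. In the other comparisons simulated, 77 to 95.5% were found and 3.19 to 8.91% of calls were false, so these shares and those between the fusions are not for changes of equal size. All genes entered each fit, with a threshold of 0.05. The 10 genes and all lists were chosen with earlier results of these data known. Partner genes named were those called in a comparison with the largest change, at most 4 per list, with a mean of 5 TPM or CPM in the higher group. The genes closest to the median profile of the 10 chaperones are not reported here. Replicate numbers did not pair the line samples. Promoters came from RefSeq, and no sequence was used in a test. The alternatives were other pseudocounts, filters, scalings and tools, fits of the compared groups alone, and each sample or line left out.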

Additional observations from a re-analysis of the deposited data

Results flagged for a closer look

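The change in CALM/AF10 cells differed from the change in GMP by limma's test of that difference for all 8 chaperone genes that passed the filter in both cell types at 6 h and 7 of them at 10 h. Of all genes, 16.2% differed upward and 22.2% downward at 6 h, and 18.5% and 20.2% at 10 h. Values are on the log2(TPM + 1) scale, with the GMP change subtracted from the CALM/AF10 change. Among the genes that rose in GMP, the difference was -0.64 at 6 h and -0.66 at 10 h for Hsp90aa1, and -0.42 and -0.54 for Hsp90ab1. For Hspd1 it was -1.43 at 6 h and -1.35 at 10 h, and for Hspe1 -1.11 and -1.48. For Hsph1 it was -1.53 and -0.97, and for Hspa8 -1.28 and -0.41. Dnaja1 differed at 6 h by -0.50. For Dnajb1, which fell in GMP, it was 0.40 and 0.52. Hspa1a and Hspa1b passed the filter through GMP alone, with group means of 0.397 to 0.759 TPM in CALM/AF10 cells. Their differences, 1.70 at 6 h and 3.55 at 10 h for Hspa1a and 0.69 and 3.55 for Hspa1b, restate the fall in GMP and measure no response in CALM/AF10 cells. The Hspa1b difference at 6 h was not called with a pseudocount of 0.1 (limma adjusted p 0.167). Groups of 3 are too small to look for samples far from the others.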

How the results depend on the processing

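For GMP at 6 or 10 h against 0 h, both tests of the difference between cell types and both comparisons within a fusion, the count of chaperone genes called stayed within 1.5 times its reported value under every alternative run. In CALM/AF10 cells, 2 genes were called at 6 h, but 1 without a filter on low values, with median centring or with only the times compared in the fit, and 1 to 2 with each sample left out. At 10 h against 0 h, none was called, but 1 with median centring, 2 with quantile normalization and 0 to 1 with each sample left out. At 10 h against 6 h, 1 was called, but none without a filter, with quantile normalization or with only the times compared, 2 with a filter of 5 TPM, and 0 with each sample left out. In GMP at 10 h against 6 h, 5 were called, and 3 to 6 with each sample left out. Between fusions, 0 were called, but 2 with DESeq2, 2 without a filter on low counts, and 0 to 2 with each line left out. With the 12 samples in 1 fit, which treats samples of a line as independent, 9 were called, and 9 also with the replicate number as a block. Of the values of single chaperone genes under an alternative, 1597 kept direction and side of the threshold, 42 lost a call, 42 gained one and 32 turned direction. Of those 32, only the 2 of Dnaja1 in TPM within a fusion were called under either setting, at 0.24 between the CALM/AF10 lines and 0.17 between the MLL/AF9 lines. In TPM, Hsph1 turned to 0.35 between the MLL/AF9 lines and Dnaja1 to 0.54 between fusions. Between the CALM/AF10 lines, Hspa1b with Hspa1a added gave -0.42, and Dnajb1 gave -0.025 with only those lines fitted. Dnaja1 turned with quantile normalization to -0.095 in GMP at 10 h against 0 h and to 0.13 in the difference between cell types at 10 h. Dnajb1 in GMP at 10 h against 6 h gave 0.038 with median centring and 0.0086 with quantile normalization. With each sample left out, directions turned at 10 h against 0 h in CALM/AF10 cells for Hspa8 (-0.022 to 0.19) and Dnajb1 (-0.11 to 0.042), at 10 h against 6 h in GMP for Dnajb1 (-0.044 to 0.013), and in the difference between cell types at 10 h for Dnaja1 (-0.12 to 0.050). With each line left out, the difference between fusions spanned 0 for 8 genes, from -0.60 to 0.79 for Hsp90aa1, -0.74 to 0.71 for Hsp90ab1, -0.63 to 3.36 for Hspa1a, -0.33 to 0.59 for Hspa8, -0.40 to 0.011 for Dnaja1, -0.15 to 0.15 for Dnajb1, -0.39 to 1.01 for Hspd1 and -0.73 to 1.03 for Hspe1. Counts over all genes moved by more than 1.5 times in 4 comparisons. CALM/AF10 cells at 10 h against 6 h had 376 genes called, but 188 without a filter, 140 with only the times compared and 64 to 336 with each sample left out. GMP at 10 h against 6 h had 1009, but 639 without a filter and 371 to 1199 with each sample left out. The CALM/AF10 lines had 5461, but 3338 in TPM. The fusions had 542, but 1264 with DESeq2, 1230 without a filter, 323 in TPM, 9065 with the 12 samples in 1 fit, 8912 with that fit and the block, and 389 to 3514 with each line left out. The causes were not tested.

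Same-numbered line samples deviated together no more than others (correlations of -0.040 to 0.040 over 18 pairs, and -0.033 to 0.049 over 36 others), and within a fusion the replicate block changed no call of a chaperone gene. No paired analysis was possible for the time course because its columns carry no replicate number. Depth is unknown there.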
